A study of Mus musculus with 6 samples.

Results

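Axon guidance genes encode the ligands that steer growing axons and the receptors that read them: semaphorins with plexins and neuropilins, Slits with Robo receptors, ephrins with Eph receptors, and netrins with Dcc and the Unc5 receptors. They were taken from the deposited gene table by their symbols, which gave 68 genes among 31319 rows. Of these, 20 were semaphorins, 11 plexins and neuropilins, 7 Robo and Slit genes, 14 Eph receptors, 8 ephrins and 8 genes of the netrin, Dcc and Unc5 group, or 34 ligands and 34 receptors. The tissue was the main olfactory epithelium (MOE), which lines the back of the nose and houses the olfactory neurons, of male C57BL/6 mice aged 5 months. One group of 3 libraries is labelled miR-200b/a KD, a knockdown of the microRNAs miR-200b and miR-200a (KD-1, KD-2 and KD-3). The other group of 3 is labelled NC (NC-1, NC-2 and NC-3) and forms the control columns of the table. The sources used here do not say how the knockdown was made, in which cells it acted or what the NC mice received. Whether each library came from its own mouse is not stated either, so the p-values refer to library-to-library spread, part or all of which may be technical.

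Olfactory sensory neurons are replaced throughout life, and each new neuron sends an axon to a fixed place in the olfactory bulb. Semaphorins act at a distance when secreted or at contact when membrane-bound, and plexins, for secreted class 3 semaphorins together with neuropilins, turn the signal into growth-cone collapse. Slits repel axons that carry Robo receptors, ephrins and Eph receptors signal between touching cells in both directions, and netrins attract through Dcc or repel through Unc5 receptors. Many of the same genes act outside neurons: Robo4, Ephb4 and Efnb2 in blood vessels, Sema3f and Epha2 in epithelia, Sema4d in lymphocytes.

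The knocked-down microRNAs read their targets with bases 2 to 8, the seed, and the sequences below show which guidance transcripts carry the matching bases. The mature microRNAs (RefSeq, build GRCm38.p6, chromosome 4, minus strand) differ within the seed, here in capitals:
miR-200b-3p: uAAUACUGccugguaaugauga
miR-200a-3p: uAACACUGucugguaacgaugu
The complements of these seeds, CAGTATT and CAGTGTT, were searched in every gene's longest annotated 3′ UTR. Of 63 members that passed the filter on low counts, 25 (39.7%) held at least 1 match, against 29% of 15786 tested genes with an annotated 3′ UTR. An 8mer, the seed match followed by A, stood in 9 of the 63 members (14.3%) and in 7.79% of all those genes. Members with a match had longer 3′ UTRs (median 3129 bases) than members without (1228 bases), as did all genes (2366 and 838 bases).

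Printed 5′ to 3′ with the seed match in capitals, 22 bases opposite the microRNA, these are 8mer sites of tested semaphorin, plexin, Slit, ephrin and Eph members (GENCODE M21, build GRCm38):
Sema3a, miR-200b, chr5:13601211-13601232, plus strand: aattctaattaactCAGTATTa
Sema3c, miR-200b, chr5:17728620-17728641, plus strand: agacaacaaggatgCAGTATTa
Plxna4, miR-200b, chr6:32150045-32150066, minus strand: agcaactgtgagctCAGTATTa
Plxna4, miR-200a, chr6:32144599-32144620, minus strand: atgcctttagacgaCAGTGTTa
Slit2, miR-200b, chr5:48304856-48304877, plus strand: tagctaccagtttcCAGTATTa
Efna1, miR-200b, chr3:89272372-89272393, minus strand: agcctcaaaaggttCAGTATTa
Efnb2, miR-200b, chr8:8617621-8617642, minus strand: atttgtaagtaacaCAGTATTa
Epha2, miR-200a, chr4:141329235-141329256, plus strand: acaaatgtcgctgtCAGTGTTa
Epha7, miR-200a, chr4:28965888-28965909, plus strand: tttttatcactgtaCAGTGTTa
Sema6a also holds an 8mer, for miR-200a, whose site is not printed here. Of the 9 tested members with an 8mer, Epha2, Efna1 and Sema3c had a fitted change above 0, and the other 6 had one below 0. The median log2 fold change of KD over NC was -0.43 for the 9 with an 8mer, -0.16 for the 16 with only a 7mer match and 0.00082 for the 38 without a match. Over all tested genes the medians were -0.03 with a 7mer match, 8mers included, and 0.04 without. With an 8mer the median over all tested genes was -0.03 as well, and without one 0.02. A match describes letters only, and these medians carry no test.

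**Figure D1:**
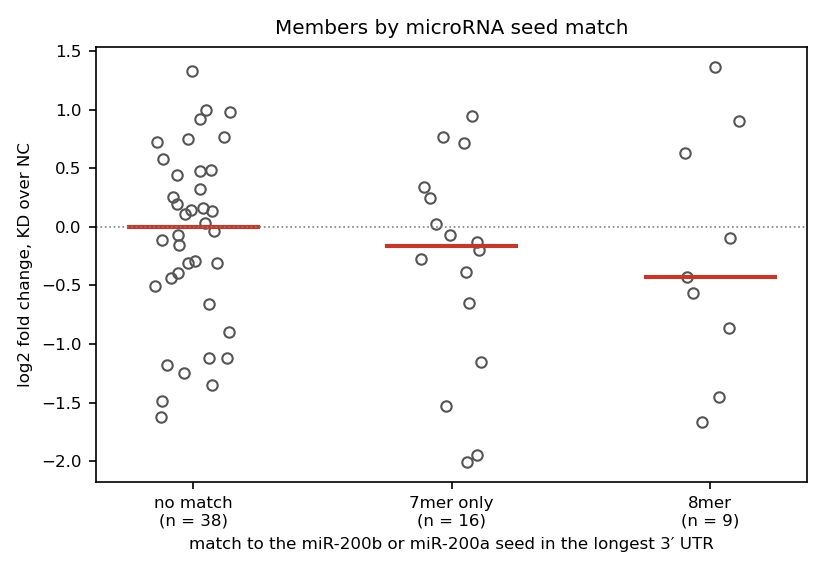
Fitted log2 fold change of KD over NC (y axis) of each tested member, grouped by whether its longest 3′ UTR held no seed match (n = 38), only 7mer matches (n = 16) or an 8mer (n = 9) to miR-200b or miR-200a; red lines are medians. Points of all 3 classes spread on both sides of 0, and the medians lie at 0.00082, -0.16 and -0.43.

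Total counts per library ran from 15704791 to 17618540, and the members' share of them was 0.271%, 0.226% and 0.302% across the KD libraries, in the order of their numbers, and 0.341%, 0.349% and 0.309% across the NC libraries. All values per library below follow that order. Libraries differed in neuronal RNA: the summed level of 15 markers of mature olfactory neurons was 116 to 5215 counts per 1000000 (CPM, normalised by TMM) in KD and 8700 to 15219 in NC, with KD-2 lowest and none of the markers at 0. Omp, the defining marker, had 149 raw counts in KD-2 and 24302 to 69388 in the others. Summed endothelial markers ran from 379 to 657 CPM in KD and from 170 to 342 in NC, and horizontal basal cell markers from 867 to 1462 and from 263 to 641, with no marker of either list at 0. Both lists were lowest in NC-1. Immature neuron markers summed to 42.4 to 502 CPM in KD and 696 to 1030 in NC, and glial markers to 136 to 159 and 168 to 228. Of the 10 glial markers, 8 had fitted changes below 0 and 2, Mbp and Pmp22, above. All KD values lay below NC for 4 glial markers and above NC for 1, Mbp. Olfactory bulb neuron markers summed to 14.9 to 116 and 156 to 273 (Th at 0 counts in KD-1 and NC-2, Gad2 in KD-2). Cdhr1 and Calb2 made up most of the bulb sum. Of the 5 bulb markers tested, 4 had fitted changes below 0 and Tbx21 had one above. Sustentacular cell markers ran from 6628 to 12331 and from 12334 to 14080, with 6 fitted changes below 0 and 2, of Sult1c1 and Cbr2, above. The sums of fibroblast markers overlapped, at 2468 to 5023 and 2872 to 4891, and Col1a1 and Col1a2 made up most of them. Of the 9 fibroblast markers, 7 had fitted changes above 0 and 2 below. For 2 of them, Pdgfra and Fn1, every KD value lay above every NC value.

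By edgeR's quasi-likelihood test no member passed an adjusted p of 0.05, the smallest being 0.28, and 0 of 18444 genes did (0%). At an unadjusted p under 0.05, 7 members were lower in KD, 11.1% of the 63 tested against 9.25% of all genes, and 11 were higher, 17.5% against 8.7%. The lower members were Robo2, Unc5b, Efnb3, Efnb2, Efna2, Sema6c and Plxnb3. The higher ones were Epha1, Epha2, Epha4, Ephb2, Ephb3, Ephb4, Robo4, Plxnc1, Sema3c, Sema3f and Sema4d, so 6 of the 11 were Eph receptors. These counts depended on single libraries. Without KD-1 or without NC-2 only 1 lower member was left. The lower count was 3 without NC-1, 8 without NC-3, 10 without KD-2 and 11 without KD-3. The higher count was 7 without KD-1, KD-2 or NC-1, 8 without NC-2, 10 without KD-3 and 12 without NC-3. DESeq2 called 1 member, Sema4d, higher (adjusted p = 0.029) and 0 lower, against 0.821% and 1.07% of all genes.

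All 3 KD values lay below all 3 NC values for 17 members (27%, against 18.6% of all genes) and above them for 14 (22.2%, against 15.3%). By the p-values of the authors' deposited table, of the 68 members 13 (19.12%) lay below NC at p under 0.05 and 12 (17.65%) above. Among all 31241 rows with such a p-value the shares were 7.87% and 6.3%. Those rows were not filtered on low counts, so the shares are not on the same base as those of the tested genes. The median fitted log2 fold change of members was -0.10, with 0.0072 over all genes, and it was 0.02 without KD-2 and 0.0018 without NC-1. Members spread in both directions, with 35 fitted changes below 0 (55.6%, against 49.4% of all genes) and 28 above (44.4%, against 50.6%).

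**Figure D2:**
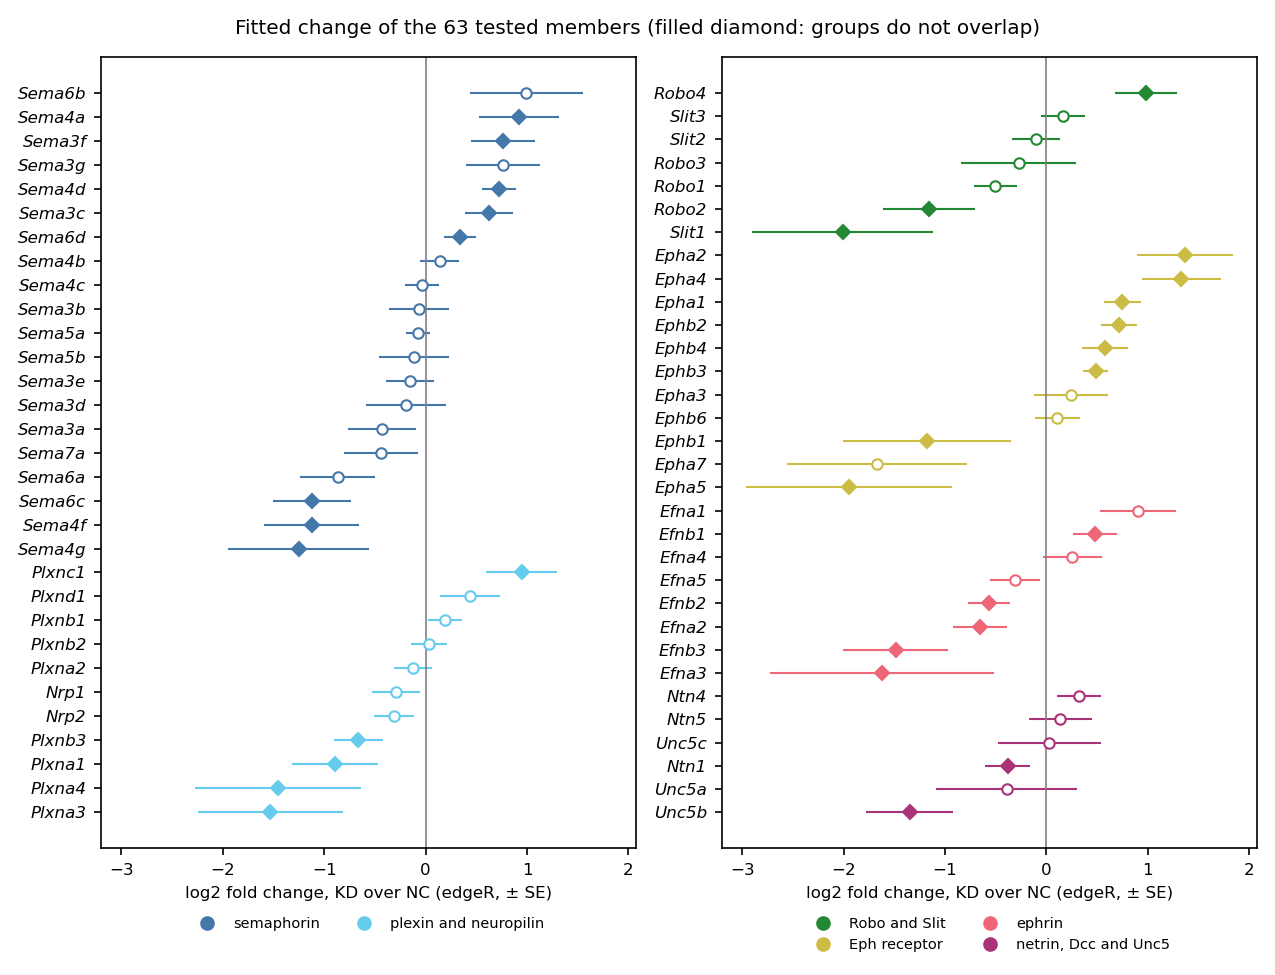
Fitted log2 fold change of KD over NC (x axis, edgeR, bars ± SE) of the 63 tested members, by family; a filled diamond marks a member whose 3 KD and 3 NC values do not overlap. The estimates run from -2.01 for Slit1 to 1.37 for Epha2, and every family holds members on both sides of 0.

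Per kilobase of annotated exon, the most abundant members in NC were Plxnb2, a plexin of epithelia and neurons, at 59.7 ± 6.25 CPM per kb (SD, n = 3), the membrane-anchored semaphorin gene Sema7a at 45.3 ± 22.1 and the ephrin gene Efna3 at 44.8 ± 5.38. Next came Plxna3 at 28.2 ± 11.2, Sema4b at 20.8 ± 4.27, Plxnb1 at 20.6 ± 1.85, Plxna1 at 19.7 ± 8.62, Sema3f at 19.2 ± 6.19 and Unc5b at 18.3 ± 2.23. Except for Efna3 and Plxna3, neighbours in this order differ by less than the larger of their SDs. In KD, Plxnb2 stood at 61.1 CPM per kb, Sema7a at 33.4, Sema3f at 32.6, Efna3 at 14.5 and Plxna3 at 9.77. At the other end, Robo3 stood at 0.12 CPM per kb and Unc5c at 0.101 in NC. Unc5d, at 0.040, and Epha10, at 0.0083, lay lower still and did not pass the filter on low counts. Dcc, the attractive netrin receptor, had 3, 0 and 0 raw counts in KD and 0 in each NC library, and Epha6 had 1 count in KD-3 alone. A count of 0 allows up to 3 counts, so both were at or under what this depth can show.

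**Figure D3:**
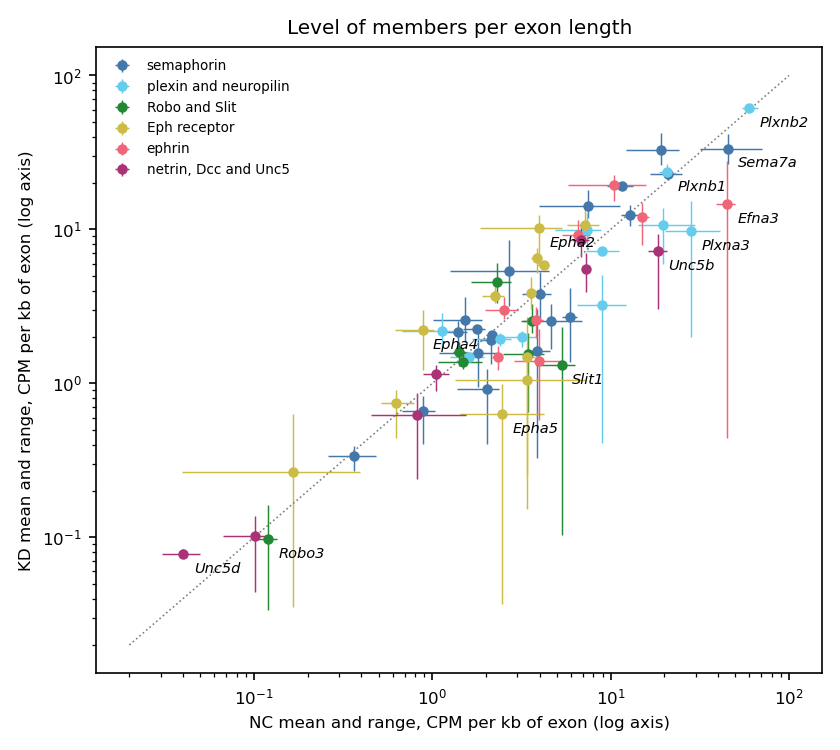
Mean level in NC (x axis) and KD (y axis) in TMM-normalised CPM per kb of annotated exon, both on log axes, for the 65 members with counts in all 6 libraries; bars span the lowest to the highest of 3 libraries and the dotted line marks equal levels. Plxnb2 lies highest and on the line, while Efna3, Plxna3, Unc5b, Slit1 and Epha5 lie below it with long KD bars.

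Among the ligands, the 20 semaphorins had 12 fitted changes below 0 and 8 above, with a median of -0.07. Sema3f, the secreted repellent that sorts neuropilin-2 axons, stood at 153, 219 and 137 CPM in KD and at 63.7, 110 and 125 in NC. Every KD value lay above every NC value, with KD-2 highest and NC-1 lowest, and the log2 fold change was 0.76 (SE 0.313, edgeR adjusted p = 0.28). It was 0.56 without KD-2, 0.52 without NC-1 and 0.32 without both. Sema3a, the ligand of neuropilin-1, stood at 11.4, 5.59 and 10.3 CPM in KD and 13.2, 14.4 and 9.36 in NC, groups that overlap (log2 fold change -0.43, SE 0.331).

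Sema4d, a transmembrane semaphorin of lymphocytes and epithelia that binds plexin-B1, had the smallest p of all members. It stood at 138, 149 and 152 CPM in KD and 73.5, 90.6 and 102 in NC. The KD values were close together and all above NC, with a log2 fold change of 0.72 (edgeR, SE 0.166, adjusted p = 0.28). Summed markers of B and plasma cells ran from 4910 to 8481 CPM in KD and from 1376 to 6269 in NC, groups that overlap. Jchain made up most of that sum. All 8 markers had fitted changes above 0, and 2 of them, Ptprc and Xbp1, had groups that did not overlap. The part of these markers in the Sema4d values was not tested. Sema3c, secreted like Sema3f, stood at 18.1, 16.3 and 11.9 against 10.4, 11.1 and 8.41 CPM (log2 fold change 0.63, SE 0.232). Sema6b, whose product binds class A plexins, had the highest fitted change of the family (0.99, SE 0.56), but its KD values of 17.7, 33.7 and 12.6 CPM overlapped the NC values of 5.00, 9.20 and 17.9.

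Other semaphorins were low in KD. Sema6c, a transmembrane ligand, stood at 15.1, 8.20 and 24.7 CPM in KD and 31.6, 34.6 and 38.5 in NC (log2 fold change -1.12, SE 0.386). Sema4g had the lowest fitted change of the family (-1.25, SE 0.695), with 13.1, 2.83 and 26.3 CPM against 32.1, 39.3 and 29.3. Its value moved to -0.75 without KD-2, the library with the fewest neuronal counts. Sema7a, which promotes olfactory axon growth, stood at 106, 137 and 87.3 CPM in KD and 233, 104 and 110 in NC. NC-1 alone set its direction: the log2 fold change was -0.44 (SE 0.367) over all libraries and 0.04 without NC-1.

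Among the receptors of the semaphorins, all 4 class A plexins, the partners of neuropilins, had fitted changes below 0 (median -1.17), and their summed level was 291, 100 and 341 CPM in KD against 796, 467 and 399 in NC. Class B plexins, which bind class 4 semaphorins, summed to 665, 765 and 702 CPM against 616, 755 and 665, with fitted changes from -0.66 to 0.19, and the difference between the classes was not tested. Of class A, Plxna2 overlapped between groups (log2 fold change -0.13, SE 0.19), and its sign turned without NC-1 (0.028) and without KD-2 and NC-1 (0.072). These are bulk libraries, in which fewer neurons and less RNA per neuron cannot be told apart.

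Plxna3, the lowest of the family, stood at 94.1, 15.8 and 121 CPM in KD and 323, 186 and 158 in NC. No KD value reached NC, and KD-2 was 6.82 times below the mean of KD-1 and KD-3. The log2 fold change was -1.53 (edgeR, SE 0.718, adjusted p = 0.30), and -0.65 without KD-2 and NC-1. Plxna4 stood at 60.1, 5.82 and 71.2 CPM against 171, 114 and 91.5, a log2 fold change of -1.46 (SE 0.819) that was -0.91 without KD-2. Plxna1, at 110, 53.9 and 124 against 268, 139 and 128 CPM, kept a narrow gap between KD-3 and NC-3, and its log2 fold change of -0.89 (SE 0.421) was -0.17 without KD-2 and NC-1. The summed mature neuron markers named above, lowest in KD-2 and highest in NC-1, followed the same order of libraries, and their part in the plexin values was not tested.

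Plxnc1, the receptor of Sema7a, had the highest fitted change of the plexins: 23.8, 16.7 and 14.1 CPM in KD against 5.67, 12.1 and 10.5 in NC (log2 fold change 0.95, SE 0.349). Plxnb3 lay lower in KD, with 11.2, 14.2 and 13.5 against 14.6, 25.1 and 21.9 CPM (log2 fold change -0.66, SE 0.244). Plxnb2, the most abundant member, stood at 450, 496 and 470 CPM in KD and 422, 515 and 446 in NC, values that interleave.

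The neuropilins, which bind class 3 semaphorins, overlapped between groups. Nrp2 stood at 91.0, 80.3 and 84.2 CPM in KD and 133, 98.7 and 85.6 in NC (log2 fold change -0.31, SE 0.194), and Nrp1 at 20.8, 17.2 and 19.2 against 26.8, 27.0 and 16.3 (-0.29, SE 0.234). The balance between them is a measure inside each library: Nrp1 took 18.6%, 17.6% and 18.6% of the Nrp1 and Nrp2 counts in KD, and 16.8%, 21.5% and 16% in NC. Exact 95% intervals, for counting error only, span 15.6 to 19.8% in KD-2 and 19.9 to 23.2% in NC-2. The group means were 18.3 ± 0.571% and 18.1 ± 2.98% (SD, n = 3 each), a difference of 0.182 percentage points (exact permutation test, two-sided p = 1).

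**Figure D4:**
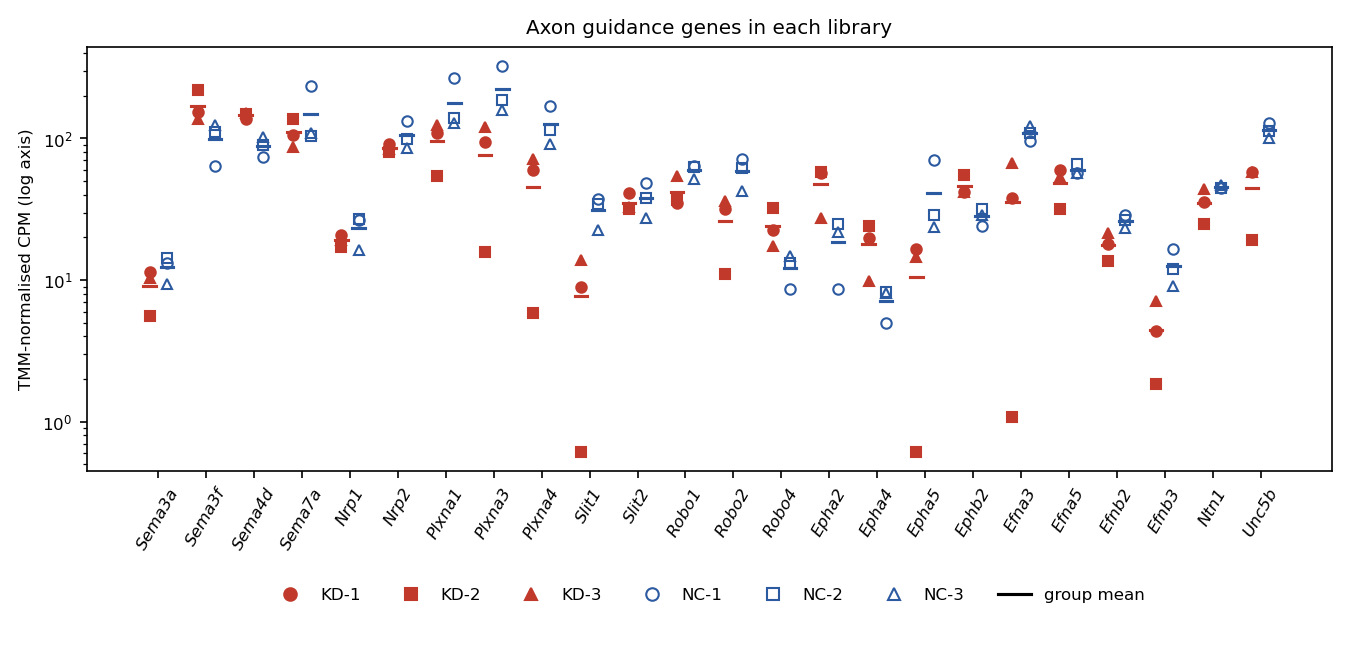
TMM-normalised CPM (y axis, log) of 24 members in each library, KD in filled red and NC in open blue, with a line at each mean of 3 libraries. KD-2 (red square) lies at 0.613 CPM for Slit1 and Epha5 and at 1.07 for Efna3, while for Sema3f, Robo4, Epha4 and Ephb2 the same library is the highest of the 6.

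The Slit ligands differed among themselves. Slit1, the Slit of neurons (chromosome 19), had the lowest fitted change of all members: 8.88, 0.613 and 13.8 CPM in KD against 37.3, 34.4 and 22.5 in NC. The NC mean was 4.05 times the KD mean and no values overlapped. KD-2 held 8 raw counts and stood 18.5 times below the mean of the other KD libraries. The log2 fold change was -2.01 (edgeR, SE 0.892, adjusted p = 0.29), and -1.44 without KD-2. By contrast Slit2 stood at 41.2, 31.6 and 33.0 against 48.2, 37.9 and 27.2 CPM and Slit3 at 9.87, 11.2 and 7.88 against 9.38, 7.92 and 8.52, both overlapping, with log2 fold changes of -0.10 (SE 0.238) and 0.16 (SE 0.22).

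Robo2, a Slit receptor of olfactory axons from the dorsal zone, stood at 31.8, 11.03 and 35.9 CPM in KD and 71.5, 61.9 and 42.3 in NC. The groups did not overlap, and the log2 fold change was -1.16 (SE 0.454, edgeR adjusted p = 0.28), or -0.77 without KD-2. Robo1 stood at 35.1, 37.0 and 53.9 against 64.1, 62.8 and 51.6 CPM, with KD-3 above NC-3 (log2 fold change -0.50, SE 0.208). Robo2 took 47.5%, 23% and 40% of the Robo1 and Robo2 counts in KD, and 52.8%, 49.7% and 45.1% in NC. The means of 36.8 ± 12.6% and 49.2 ± 3.86% (SD, n = 3 each) differed by -12.3 percentage points (exact permutation test, two-sided p = 0.2, where 0.1 is the smallest possible), and by -5.42 without KD-2.

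Robo4, the Robo of endothelial cells (chromosome 9, 37401897 to 37415115), had the opposite order: 22.5, 32.2 and 17.5 CPM in KD and 8.70, 13.2 and 14.7 in NC. All KD values were above NC, with a log2 fold change of 0.98 (edgeR, SE 0.306, adjusted p = 0.28), or 0.54 without KD-2 and NC-1. Of the 10 endothelial markers, 9 had fitted changes above 0 and 8 had groups that did not overlap. Their sum and Robo4 were both highest in KD-2 and lowest in NC-1, and the part of the endothelial markers in the Robo4 values was not tested.

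Ephrins held low and high members as well, with 5 of 8 fitted changes below 0. Efna3, a membrane-anchored ligand of EphA receptors, stood at 37.8, 1.07 and 67.2 CPM in KD and 95.4, 110 and 122 in NC. The KD libraries differed widely, KD-2 lying 49 times below the mean of the other 2, and none reached NC. The log2 fold change was -1.62 with an SE of 1.11, so the estimate was less than 2 SE from 0, and -1.03 without KD-2. Efna5, another ephrin-A of olfactory axons, stood at 60.3, 31.9 and 53.6 CPM in KD and 57.1, 66.3 and 57.3 in NC (log2 fold change -0.31, SE 0.25), with KD-2 lowest.

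Efna3 lies between 2 other ephrin genes on chromosome 3, all on the minus strand: Efna1 (89271733 to 89281142), Efna3 (89313899 to 89322965) and Efna4 (89333390 to 89338028). The neighbours did not share its values. Efna1, an ephrin of epithelia and vessels, stood at 37.4, 41.5 and 27.8 against 10.6, 17.8 and 28.8 CPM (log2 fold change 0.90, SE 0.375), overlapping only between KD-3 and NC-3. Efna4 stood at 4.20, 5.82 and 4.41 against 3.15, 4.09 and 4.82 CPM (0.26, SE 0.293). In KD-2 Efna1 and Efna4 were at their highest of the 6 libraries and Efna3 at its lowest.

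Of the B-class ephrins, which signal back into the cell that carries them, Efnb3 stood at 4.38, 1.84 and 7.17 CPM in KD and 16.7, 11.95 and 9.08 in NC (edgeR log2 fold change -1.49, SE 0.517, adjusted p = 0.28). Efnb2 stood at 18.1, 13.6 and 21.5 against 28.7, 26.7 and 23.2 CPM (-0.56, SE 0.209). Both had every KD value below NC. Efnb2, an arterial endothelial gene too, was lowest in KD-2, where the summed endothelial markers were highest, and their part in its values was not tested. Efna2, at 3.09, 2.60 and 3.75 against 4.63, 5.06 and 5.21 CPM, likewise did not overlap (-0.65, SE 0.267).

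Of 11 tested Eph receptors, 8 had fitted changes above 0 (against 50.6% of all genes), with a median of 0.48, and the KD values of 6 lay wholly above NC (against 15.3% of all genes). These counts carry no test. Epha2, a receptor of epithelial cells, stood at 57.4, 58.0 and 27.5 CPM in KD and 8.63, 25.03 and 21.7 in NC (log2 fold change 1.37, SE 0.471, edgeR adjusted p = 0.28). It was 1.22 without KD-2, 1.03 without NC-1 and 0.88 without both. Epha4 stood at 19.8, 24.1 and 9.81 against 5.00, 8.17 and 8.13 CPM (1.33, SE 0.391). Epha1 stood at 29.8, 26.7 and 20.4 against 14.0, 15.6 and 16.1 (0.75, SE 0.186), and its exons overlap those of Zyx on the other strand, so reads of the pair may be mixed.

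Of the B-class receptors, Ephb3 stood at 39.1, 39.0 and 39.6 CPM in KD and 25.7, 30.0 and 28.4 in NC, the most even KD values of the family (log2 fold change 0.48, SE 0.121). Ephb2 stood at 41.8, 54.8 and 42.2 against 24.1, 31.8 and 28.6 (0.72, SE 0.176) and Ephb4, the receptor of venous endothelium, at 41.4, 62.5 and 45.8 against 26.5, 34.0 and 39.9 (0.58, SE 0.227). None of the 3 overlapped between groups, and each had edgeR adjusted p = 0.28. All 8 horizontal basal cell markers also had fitted changes above 0, 7 of them without overlap, and their part in the Eph values was not tested.

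Epha5, Epha7 and Ephb1 were the Eph receptors with fitted changes below 0. Epha5, an ephrin-A receptor of neurons (chromosome 5), stood at 16.6, 0.613 and 14.5 CPM in KD and 70.4, 28.9 and 23.9 in NC. KD-2 held 8 raw counts, and the KD and NC values did not overlap. The log2 fold change of -1.95 (edgeR, SE 1.01, adjusted p = 0.32) was -0.74 without KD-2 and NC-1. Ephb1 showed the same outline, with 11.2, 1.07 and 18.9 against 26.2, 22.2 and 22.6 CPM (-1.18, SE 0.829). Epha7 did not: NC-1 stood at 71.2 CPM while NC-2 and NC-3, at 13.3 and 15.9, lay close to KD-1 and KD-3, at 13.4 and 15.4, and KD-2 stood at 2.53. Its log2 fold change of -1.67 (SE 0.89) became 0.0070 without KD-2 and NC-1.

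Ntn1, the netrin that attracts axons through Dcc, stood at 35.8, 24.7 and 43.8 CPM in KD and 44.9, 44.6 and 46.6 in NC, a narrow gap with no overlap (log2 fold change -0.38, SE 0.218). Ntn4, a netrin of basement membranes, overlapped, at 41.2, 24.9 and 29.6 against 22.7, 28.3 and 25.5 CPM (0.32, SE 0.218). Among the repulsive receptors, Unc5b held most of the counts: 58.0, 19.1 and 57.9 CPM in KD and 129, 114 and 101 in NC. KD-1 and KD-3 were alike and below every NC library, and KD-2 was lower still. The log2 fold change was -1.35 (edgeR, SE 0.425, adjusted p = 0.28), or -0.87 without KD-2 and NC-1. Ntn1 and Unc5b thus had counts in every library, and Dcc in KD-1 alone.

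The heat map of the 63 tested members sets these patterns side by side. KD-2 held the lowest of the 6 values for 26 members (41.3%, against 30.4% of all genes) and the highest for 17 (27%, against 29.6%). NC-1 held the highest for 19 (30.2%, against 30.2%) and the lowest for 24 (38.1%, against 32.5%). The members lowest in KD-2 relative to NC were Efna3, Epha5, Slit1, Plxna4, Ephb1, Plxna3, Epha7 and Sema4g, and all 8 were also below the NC mean in KD-1 and KD-3.

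**Figure D5:**
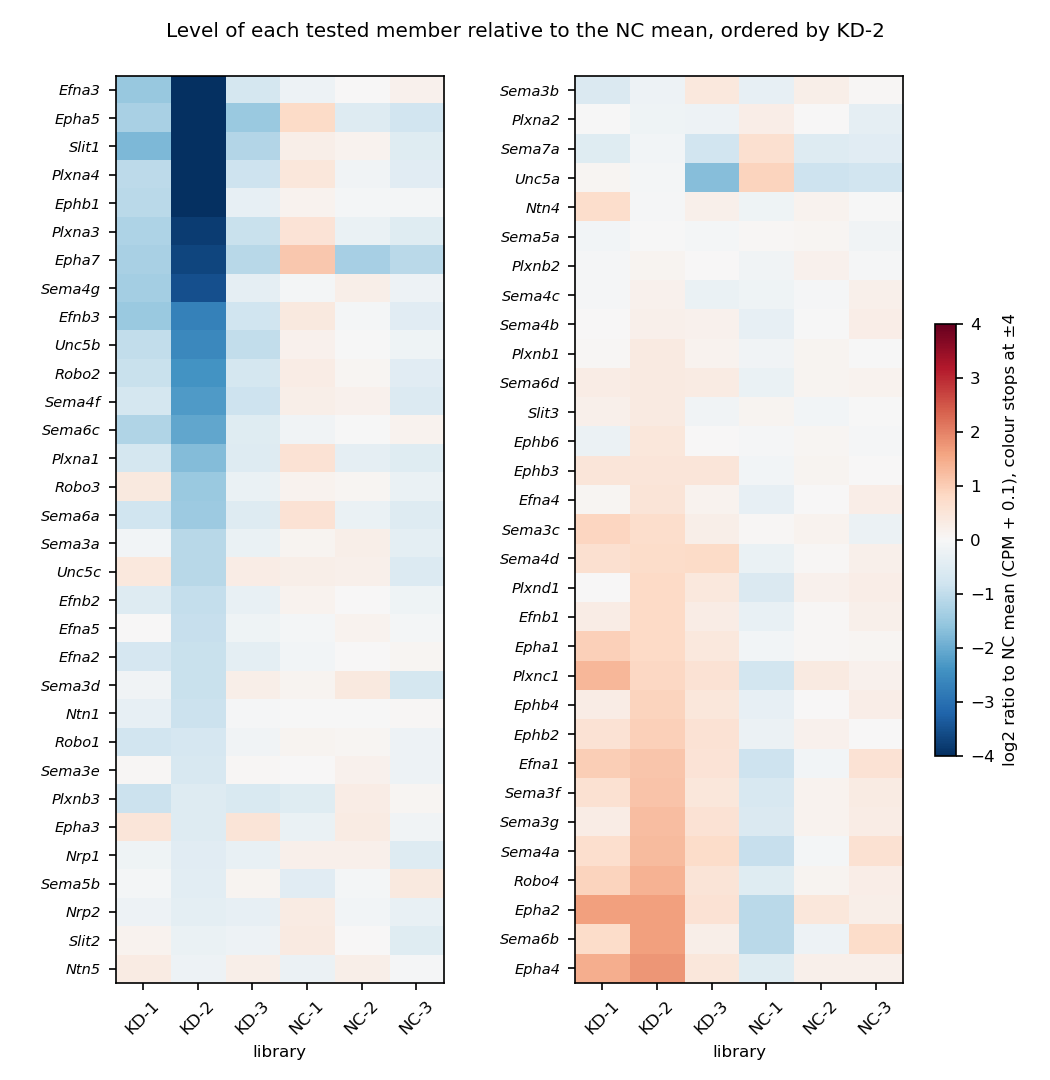
Level of each tested member (rows) in each library (columns) as log2 of its ratio to the NC mean, with 0.1 CPM added, ordered by the value in KD-2; blue is lower and red higher than NC, and the colour stops at 4 in either direction. Efna3, Epha5 and Slit1 head the low end and Epha4, Sema6b and Epha2 the high end. For these 6, KD-1 and KD-3 show the same sign as KD-2 in paler colour, except that Epha2 in KD-1 (57.4 CPM) nearly equals KD-2 (58.0 CPM).

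Genes that work with these ligands and receptors gave mixed values too. Of 28 co-receptors and other cues, 26 were tested, with 15 fitted changes below 0 and 11 above (median -0.19, range -1.94 to 0.80). At an unadjusted p under 0.05, 2 lay lower and 1 higher, against 9.25% and 8.7% of all genes. All KD values lay below all NC values for 10 of the 26 and above them for 2, against 18.6% and 15.3% of all genes. L1cam, an adhesion molecule and semaphorin co-receptor, stood at 36.1 ± 10.4 CPM (SD, n = 3, also below) in KD and 71.0 ± 17.0 in NC, and Dscaml1, a cell adhesion molecule, at 12 ± 7.08 against 29.5 ± 7.28. Rgmb, a ligand of the netrin receptor relative neogenin, stood at 38.0 ± 7.86 against 26.5 ± 2.94, and the chemokine receptor gene Cxcr4 at 79.1 ± 11.9 against 45.2 ± 17.9.

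Inside the cell, guidance receptors act through collapsin response mediators, Mical enzymes and other effectors. All 53 listed effectors were tested, with 28 fitted changes below 0 and 25 above (median -0.01). At an unadjusted p under 0.05, 8 were lower and 5 higher, against 9.25% and 8.7% of all genes. All KD values lay below all NC values for 15 of the 53 and above them for 10, against 18.6% and 15.3% of all genes. Mical3, of the Mical family that oxidises actin downstream of plexins, stood at 65.4 ± 11.7 against 109 ± 12.1 CPM, and Dpysl2, a collapsin response mediator, at 25.7 ± 4.44 against 40.9 ± 9.36. On the other side Vav3, an exchange factor that acts below Eph receptors, stood at 11.6 ± 2.42 against 5.04 ± 0.938. None of the genes of either list passed the edgeR threshold (smallest adjusted p = 0.28 in each), and DESeq2 called 1 effector higher and no other gene of the 2 lists.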

How the data were processed

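Polyadenylated RNA of the MOE was sequenced, per the labels' protocols. The authors deposited raw read counts per gene for 6 libraries. Beside them stand, per the file headers, 3 columns that the authors deposited too: a signal (each gene's mean of counts over size factors), a log2 ratio of the group means and a p-value. The submitters' processing notes name DESeq, DESeq2, HTSeq 0.6.0, TopHat2, HISAT2 2.1.0, Bowtie2 2.2.3 and the build GRCm38, without roles. The sources used here do not give the strand setting of the counting, and exons of 17 members overlap another gene's, 14 of them on the other strand.

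All genes were fitted with edgeR 4.0.16 (R 4.3.3) on the counts: TMM factors, the default filter on low counts, the quasi-likelihood test of KD against NC without covariates, two-sided, and Benjamini-Hochberg adjustment over 18444 genes with a threshold of 0.05. The filter kept 63 of the 68 members; Dcc, Epha6, Epha8, Epha10 and Unc5d stayed out. Alternatives used DESeq2 1.42.0, limma-voom (limma 3.58.1), other scaling, no filter, the replicate number as a block and fewer libraries. Each SE is the log2 fold change over the root of F. Exon lengths, gene positions and 3′ UTRs came from GENCODE M21 (GRCm38). The fits were tried on simulated counts of well-counted genes with less spread than these data. That trial does not show what could be recovered here.

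The members, the gene lists and the rule for named genes were chosen with earlier results of these data known. That rule took members with known roles in olfactory wiring or in 1 cell type, those at an unadjusted p under 0.05, the extremes and the most abundant member of each family, and up to 2 genes per list and direction with the smallest p; 1 effector that it named is not reported here. Plxna4, Plxnb1, Ephb1, Epha7, Efna4, Robo3, Unc5c, Sema4b and Sema6a were added after their values were seen. So were the members named only for a turned sign and the members just named as filtered out.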

Additional observations from a re-analysis of the deposited data

How the results depend on the processing

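Of 63 tested members, 47 kept the sign of their fitted log2 fold change under all 12 alternatives, and of the 33 with a change of at least 0.5 in size, 1 turned, Epha7. RLE scaling and no filter turned 0. At an unadjusted p under 0.05, the members lower in KD numbered 7, and 13 with DESeq2, 11 with limma-voom, 4 with the replicate block and 1 to 11 with 1 library left out. Those higher numbered 11, or 6 if KD-2 and NC-1 were both left out, and 7 to 12 with 1 library left out. At the adjusted threshold DESeq2 called 1. The members' median ran from -0.16 to 0.022 with 1 library left out and was -0.0048 without both KD-2 and NC-1. The Nrp1 share difference ran from -0.88 to 1.89 percentage points and that of Robo2 from -17.7 to -5.42. Seed matches numbered 25 as 7mers, 26 over all 3′ UTRs and 9 as 8mers.

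Without both KD-2 and NC-1 the sign turned for Efna4 (-0.024), Epha7 (0.0070), Ephb6 (-0.10), Plxna2 (0.072), Plxnb2 (-0.037), Robo3 (0.22), Sema3d (0.14), Sema3e (0.070), Sema4b (-0.017), Slit2 (0.21) and Unc5a (0.28). Unc5c stood at -0.018 with limma-voom and -0.061 with the replicate block. With 1 library left out, values ran from -0.085 to 0.24 for Ephb6, -0.28 to 0.028 for Plxna2, -0.024 to 0.10 for Plxnb2, -0.83 to 0.13 for Robo3, -0.38 to 0.14 for Sema3b, -0.47 to 0.084 for Sema3d, -0.27 to 0.065 for Sema3e, -0.12 to 0.077 for Sema4c, -0.30 to 0.15 for Sema5b, -0.67 to 0.040 for Sema7a, -0.28 to 0.12 for Slit2, -0.72 to 0.43 for Unc5a and -0.22 to 0.40 for Unc5c. The cause was not tested. Same-numbered libraries deviated from their group means with correlations of 0.31, 0.10 and -0.26. Differently numbered ones ran from -0.35 (KD-2 with NC-1) to 0.35 (KD-2 with NC-3). Such values cannot settle whether the numbers pair the libraries, which the sources used here do not state. The genes' biological coefficient of variation was 40.9%, which with 3 libraries a group limits what could be called.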

Other observations

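Epha8, an Eph receptor left out by the filter on low counts, had 10, 39 and 3 raw counts in KD against 3, 6 and 33 in NC, so that 1 library of each group stood above the others. Unc5d, a repulsive netrin receptor, had 12, 9 and 14 counts in KD and 6, 9 and 5 in NC, and Epha10 had at most 2 in any library.

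The O/E motif (TCCC and GGGA with 2 bases of any kind between), the letters bound by the olfactory neuron factors of the Ebf family, reads the same on both strands and was searched in RefSeq promoter windows of 300 bases (build GRCm38.p6). It stood in windows of 3 of the 58 members that the promoter table holds (5.17%), against 1.06% of 27025 genes and 1.34% of 12985 tested genes. These were Plxnb1, Robo3 and Sema4b, whose fitted log2 fold changes were 0.19, -0.27 and 0.14. Members with the lowest fitted changes, such as Slit1, Epha5 and Efna3, were not among the 3. The members without a promoter window are not listed here, so a missing motif may mean a missing window.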
